A study of Homo sapiens with 9 samples.

Results

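The ephrin ligands are the 8 membrane-bound partners of the Eph receptor tyrosine kinases, EFNA1 to EFNA5 and EFNB1 to EFNB3. They were taken as every annotated transcript cluster of the array whose gene symbol names an ephrin, and each of the 8 genes had 1 such cluster, so that 8 of 22465 genes with a symbol of their own were followed over 9 arrays. The study used Affymetrix Human Transcriptome Array 2.0 arrays to measure total RNA of 22Rv1, an established line from prostate carcinoma that expresses the cancer-testis antigen SSX2 strongly, grown to confluence in DMEM with fetal calf serum. The KD group was 22Rv1 transfected with a plasmid that encodes an shRNA against SSX2, the SCR group was 22Rv1 transfected with a scramble shRNA plasmid, both kept under neomycin at 1 mg/ml, and the WT group was untransfected 22Rv1. Each group held 3 arrays that the series describes as technical replicates, so that all p-values below measure the spread between such replicates of 1 line per condition. In KD against SCR, line and knockdown cannot be told apart. In KD against WT, line, selection and knockdown cannot be told apart. No account of single-cell cloning was found in the sources used here, and 1 shRNA line was measured by array.

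Ephrins act while still attached to the cell that makes them. The A class is held in the outer leaflet of the membrane by a glycosylphosphatidylinositol (GPI) anchor, and the B class crosses the membrane and carries a short cytoplasmic tail that ends in a PDZ-binding motif. Contact with a receptor on a neighbouring cell starts forward signalling in the receptor cell and reverse signalling in the ligand cell, and the pair governs cell repulsion, adhesion, boundary formation and, in epithelia, contact-dependent growth control. A ligands bind mostly EphA receptors and B ligands mostly EphB receptors, with EPHA4 and EFNA5 among the known exceptions that cross between classes.

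The promoters of the 4 ephrins that passed the test in any comparison are shown, since they are the regulatory sequence next to the transcripts whose level differed. Each run holds the 250 bases before the RefSeq start of the gene on build GRCh38.p14, written 5′ to 3′ on the gene's strand, with matches to the searched motifs in capitals. The windows were chr5:107670938-107671187 on the minus strand for EFNA5, chr1:155127626-155127875 on the plus strand for EFNA1, chr1:155078587-155078836 on the plus strand for EFNA3 and chr13:106535663-106535912 on the minus strand for EFNB2.
EFNA5: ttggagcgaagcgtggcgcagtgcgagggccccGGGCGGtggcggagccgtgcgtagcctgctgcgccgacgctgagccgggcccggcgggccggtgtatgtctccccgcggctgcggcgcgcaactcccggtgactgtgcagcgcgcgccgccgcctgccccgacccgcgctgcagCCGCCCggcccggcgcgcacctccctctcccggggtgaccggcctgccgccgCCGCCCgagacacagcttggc
EFNA1: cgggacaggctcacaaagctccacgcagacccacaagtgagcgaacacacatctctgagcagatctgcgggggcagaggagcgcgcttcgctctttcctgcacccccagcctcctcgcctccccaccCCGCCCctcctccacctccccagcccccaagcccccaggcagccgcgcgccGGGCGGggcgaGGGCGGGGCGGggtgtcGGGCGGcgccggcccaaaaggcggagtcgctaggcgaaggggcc
EFNA3: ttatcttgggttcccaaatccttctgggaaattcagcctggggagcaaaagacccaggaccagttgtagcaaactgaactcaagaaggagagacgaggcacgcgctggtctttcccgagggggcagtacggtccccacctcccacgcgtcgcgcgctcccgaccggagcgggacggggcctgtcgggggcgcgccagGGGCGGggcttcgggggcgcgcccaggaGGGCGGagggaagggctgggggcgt
EFNB2: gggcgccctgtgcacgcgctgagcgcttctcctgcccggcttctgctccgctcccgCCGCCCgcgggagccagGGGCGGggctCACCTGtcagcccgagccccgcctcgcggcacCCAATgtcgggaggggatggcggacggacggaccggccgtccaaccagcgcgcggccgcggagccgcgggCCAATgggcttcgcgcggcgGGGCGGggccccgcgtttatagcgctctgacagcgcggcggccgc

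RefSeq promoter windows were matched for 7 of the 8 ephrins, and EFNB3 was not matched. All 7 held at least 1 GC box, the letters GGGCGG on either strand that bind SP family factors, against 42.6% of 35116 promoter windows of the same length. The number of GC boxes was 5 in EFNA1, 4 in EFNA2, 3 in EFNA5 and in EFNB2, 2 in EFNA3 and in EFNA4, and 1 in EFNB1. The share of G and C bases ran from 58.4% in EFNA4 to 84.0% in EFNA2 and was 79.6% in EFNA5, the ephrin that rose, and 73.2% in EFNA1, which fell. CACCTG, the E-box form bound by ZEB and SNAIL repressors, was found on either strand in EFNB2 alone of the 7, against 17.5% of all windows. CCAAT was found on either strand in EFNA4, EFNB1 and EFNB2, against 32.0% of windows. TGANTCA, the AP-1 site, and GGAATG, the TEAD site, were found on neither strand in any of the 7 windows, against 6.57% and 11.9% of all windows, which says only that these letters are not in these 250 bases. None of these motifs contains another, and a match is a description of the sequence.

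The knockdown was checked first on its target. SSX2, measured by a transcript cluster that it shares with its near-identical copy SSX2B, lay between 5.06 and 5.19 on the KD arrays against 11.94 on all 3 SCR arrays and 11.89 to 11.98 on the WT arrays, in log2 intensity (KD minus SCR -6.81, SE 0.05, limma with Bonferroni adjustment, adjusted p = 7.52e-12). Array medians ran from 5.407 to 5.443 on the KD arrays and from 5.476 to 5.504 on the control arrays, so that every KD array lay below every control array. Probe sets of the array's background control had medians of 3.60 to 3.81. Pearson's r across transcripts was 0.9959 to 0.9974 within groups, 0.9951 to 0.9955 between SCR and WT, and 0.956 to 0.9609 between KD and either control. RNA integrity numbers averaged 2.5 over the series, which is low, and were not given per sample. The epithelial markers KRT8, KRT18 and EPCAM had group means of 11.09 to 11.27, 10.85 to 11.04 and 8.54 to 8.61, whereas the luminal genes KLK3, KLK2, HOXB13 and TMPRSS2 were lower in KD than in SCR, so that 4 of 7 measured luminal genes fell and the list averaged 7.86 to 7.96 on the KD arrays, 9.30 to 9.32 on SCR and 9.11 to 9.18 on WT. A list of 10 genes, picked to represent prostate lines that lack the androgen receptor, averaged 9.18 to 9.23 on the KD arrays. It averaged 6.10 to 6.12 on SCR and 6.03 to 6.11 on WT. Against SCR, 8 of the 10 were higher in KD, beside 7.78% of all genes. Of this list, AXL, ANXA1, UCHL1, CAV1, MET and EGFR are among the rises that the paper tabulates from these same arrays. The count of 8 is therefore not an independent result, and nothing is read from it. Stromal, endothelial, leukocyte and neuronal lists had 0 of 6, 0 of 5, 1 of 4 and 0 of 5 measured genes higher in KD than in SCR and 1, 0, 0 and 3 lower. These lists averaged 4.67 to 4.70, 4.72 to 4.78, 5.70 to 5.78 and 5.80 to 5.87 on the KD arrays, 4.98 to 5.00, 4.66 to 4.74, 5.15 to 5.20 and 6.91 to 6.95 on SCR, and 5.00 to 5.02, 4.58 to 4.75, 5.12 to 5.24 and 6.82 to 6.88 on WT. The leukocyte gene that rose was CD68, while PTPRC, which defines leukocytes, was at background in all groups. The part of these shifts in the ephrin values was not tested.

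SSX2 knockdown cells carried more of 1 ephrin transcript and less of several others. In KD against SCR, EFNA5 rose 4.57-fold, while EFNA1 fell 1.93-fold and EFNA3 fell 1.60-fold, so that 1 of 8 ephrins was higher and 2 were lower after Bonferroni adjustment over 67528 transcript clusters. The background was 7.78% of genes higher and 7.6% lower, and nothing is read about the family from counts this small. The median log2 fold change of the 8 ephrins was -0.25 against -0.06 over all 22465 genes. In KD against WT, which shares the KD arrays, EFNA5 was again higher and EFNA1 and EFNB2 were lower, again 1 and 2 of 8, against 7.83% and 7.45% of genes, with a median of -0.34 against -0.06.

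**Figure D1:**
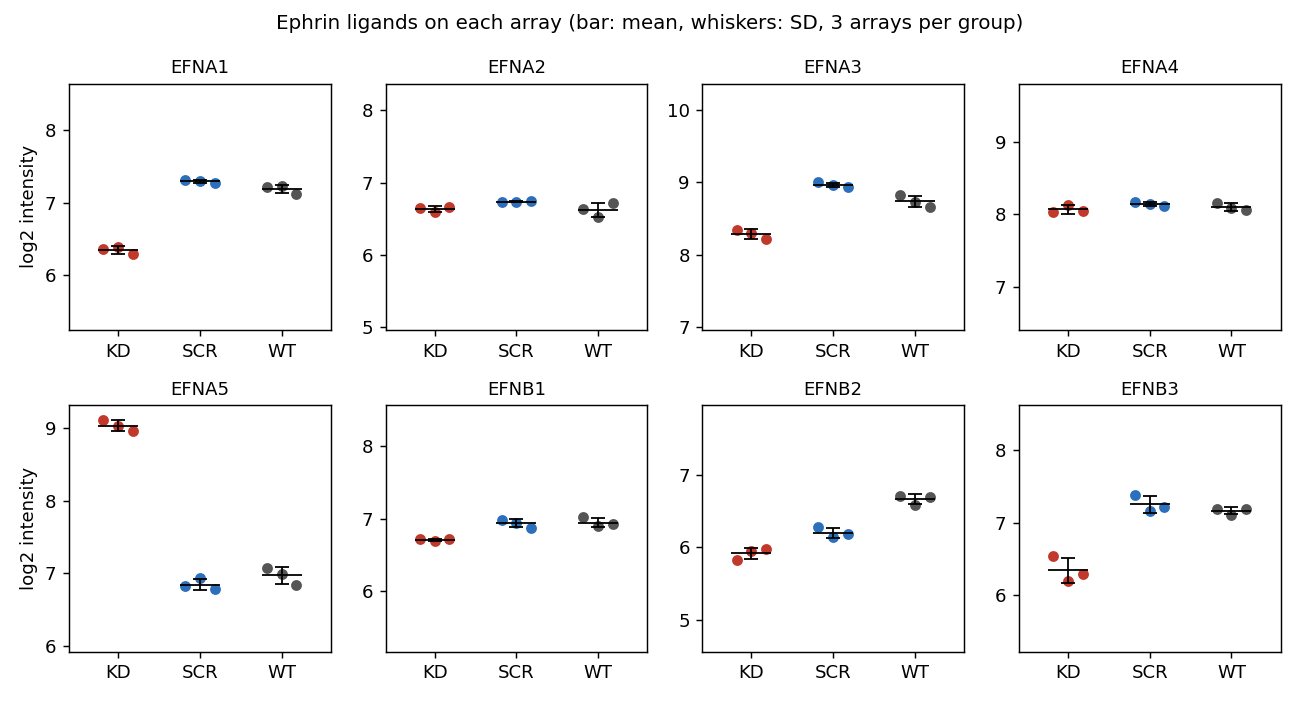
Level of each ephrin ligand on the 9 arrays, in log2 intensity on the vertical axis, with the groups KD, SCR and WT on the horizontal axis. Points are single arrays, bars the mean of 3 arrays and whiskers the SD; each panel spans the same number of log2 units around its own gene. KD lies above both controls for EFNA5 and below both for EFNA1, EFNA3, EFNB1, EFNB2 and EFNB3.

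Among the GPI-anchored ligands, EFNA5, best known for guiding axons and for crossing the boundary between the receptor classes, was the ephrin that rose. Its log2 intensity was 9.11, 9.04 and 8.96 on the KD arrays, 6.82, 6.93 and 6.79 on the SCR arrays and 7.08, 7.00 and 6.84 on the WT arrays. Every KD array lay above every control array. KD minus SCR was 2.19 (SE 0.07, 95% interval 2.03 to 2.35, adjusted p = 7.88e-06) and KD minus WT was 2.06 (95% interval 1.90 to 2.23, adjusted p = 1.37e-05). Of 22465 genes, 1.03% rose by more than EFNA5 in KD against SCR, where it ranked 232, and it ranked 276 in KD against WT. SCR and WT overlapped, with a difference of -0.13 (95% interval -0.29 to 0.03). In bulk RNA, a change in the share of cells that carry a transcript and a change in the amount per cell cannot be told apart.

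EFNA1, a ligand of EPHA2 that was first described as a gene induced by tumour necrosis factor in endothelial cells, was the ephrin with the lowest adjusted p among those that fell. It measured 6.37, 6.39 and 6.29 on the KD arrays, 7.31, 7.30 and 7.27 on the SCR arrays and 7.21, 7.23 and 7.12 on the WT arrays. KD lay below both controls on every array. KD minus SCR was -0.95 (SE 0.05, 95% interval -1.06 to -0.83, adjusted p = 0.000579) and KD minus WT was -0.84 (adjusted p = 0.00172), and 4.46% of genes fell by more in KD against SCR. The difference missed a 2-fold minimum in both comparisons.

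EFNA3, a further A ligand that is encoded beside EFNA1 on chromosome 1, measured 8.34, 8.29 and 8.21 on the KD arrays, 9.00, 8.96 and 8.93 on the SCR arrays and 8.82, 8.73 and 8.66 on the WT arrays. KD was below both controls on every array, and every SCR array was above every WT array. It fell in KD against SCR by 0.68 on the log2 scale (SE 0.06, 95% interval -0.81 to -0.55, adjusted p = 0.0377). In KD against WT the difference was -0.45 (95% interval -0.58 to -0.32) and did not pass (adjusted p = 1; 0.000131 by Benjamini-Hochberg). The call against SCR was narrow: it was lost without any 1 of the 9 arrays, with adjusted p from 0.06 to 0.41.

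The remaining A ligands, EFNA2 and EFNA4, did not pass in any comparison. EFNA2 lay between 6.59 and 6.66 on the KD arrays, 6.73 and 6.75 on SCR and 6.52 and 6.72 on WT. Its KD minus SCR difference was -0.10 (95% interval -0.23 to 0.03), and KD and WT overlapped. EFNA4, which is encoded next to EFNA3, lay between 8.03 and 8.13 on KD, 8.12 and 8.18 on SCR and 8.06 and 8.16 on WT. Its KD minus SCR difference was -0.08 (95% interval -0.19 to 0.03), and all 3 groups overlapped. For both genes the lower bound in KD against SCR was smaller in size than the difference measured for EFNA3.

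Among the transmembrane ligands, EFNB2, the arterial marker and EPHB4 ligand, was the one that passed a test. It measured 5.82, 5.95 and 5.97 on the KD arrays, 6.28, 6.14 and 6.18 on the SCR arrays and 6.71, 6.59 and 6.69 on the WT arrays. The 3 groups did not overlap and were ordered KD, SCR, WT from low to high, so that SCR lay between KD and the untransfected line. KD minus WT was -0.75 (95% interval -0.89 to -0.61, adjusted p = 0.0376), a 1.68-fold decrease. This call too was lost without any 1 of the 9 arrays, with adjusted p from 0.07 to 0.40, and after centring or quantile normalization of the arrays (0.06 and 0.07). KD minus SCR was -0.28 (SE 0.06, 95% interval -0.42 to -0.14, adjusted p = 1), and SCR minus WT was -0.46 (SE 0.06, 95% interval -0.60 to -0.32, adjusted p = 1; 0.00502 by Benjamini-Hochberg).

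EFNB3, a B ligand best known from the midline of the nervous system, showed a KD minus SCR difference nearly as large as that of EFNA1 but more spread between arrays. Its level was 6.53, 6.20 and 6.29 on the KD arrays, 7.38, 7.16 and 7.22 on the SCR arrays and 7.19, 7.11 and 7.19 on the WT arrays. KD lay below both controls on every array, and the SD over the KD arrays was 0.17. KD minus SCR was -0.91 (SE 0.09, 95% interval -1.11 to -0.71, adjusted p = 0.16; 2.23e-05 by Benjamini-Hochberg) and KD minus WT was -0.82 (95% interval -1.02 to -0.62, adjusted p = 0.381). It therefore did not pass the Bonferroni threshold, and it ranked 1056 from the lowest of 22465 genes in KD minus SCR.

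EFNB1, the X-linked ligand whose loss causes craniofrontonasal syndrome, lay between 6.70 and 6.72 on the KD arrays, 6.88 and 6.99 on SCR and 6.90 and 7.02 on WT. KD was below both controls on every array by a small margin. The KD minus SCR difference was -0.22 (95% interval -0.34 to -0.11, adjusted p = 1) and the KD minus WT difference was -0.24, with Benjamini-Hochberg adjusted p of 0.00637 and 0.00474. SCR and WT differed by -0.01 and overlapped.

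**Figure D2:**
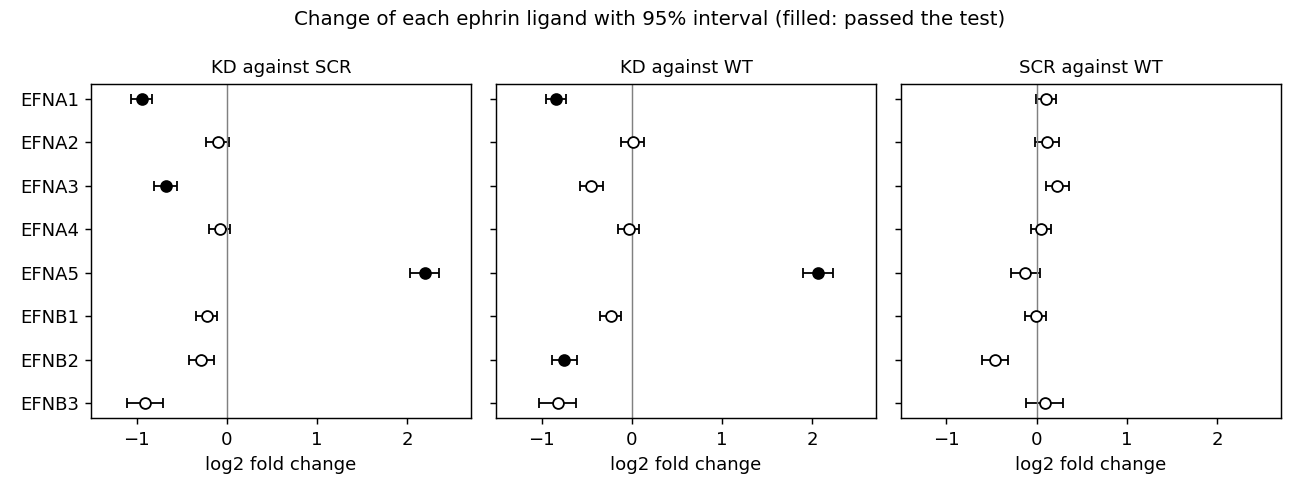
Log2 fold change of each ephrin ligand on the horizontal axis in the 3 comparisons, with 95% intervals from limma as whiskers. Filled points passed the Bonferroni threshold over 67528 transcript clusters: EFNA5 above 0 in both comparisons with KD, EFNA1 below 0 in both, EFNA3 below 0 against SCR and EFNB2 below 0 against WT, with none filled in SCR against WT.

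With the less strict Benjamini-Hochberg adjustment, EFNA5 was higher and EFNA1, EFNA3, EFNB1, EFNB2 and EFNB3 were lower in both comparisons with KD, that is 1 and 5 of 8, where 21.9% and 28.5% of all genes were higher and lower against SCR and 22.3% and 29.8% against WT. At an unadjusted p under 0.05 the same 1 and 5 ephrins were counted in both comparisons, against 24% and 33.1% of genes for SCR and 24.3% and 34.7% for WT. The KD and SCR arrays did not overlap for 7 ephrins, 1 with KD above and 6 with KD below, against 26.2% and 39.1% of genes. The KD and WT arrays did not overlap for 6 ephrins, 1 with KD above and 5 with KD below, against 25.4% and 36.9%. In SCR against WT, 0 ephrins passed the Bonferroni threshold in limma, where 0.276% of genes were higher and 0.174% lower, and 1 was lower and none higher by Benjamini-Hochberg (EFNB2), against 1.31% and 1.63% of genes. At an unadjusted p under 0.05 EFNA3 was higher and EFNB2 lower, against 7.25% and 6.75% of genes, and the arrays did not overlap for 3 ephrins with SCR above (EFNA1, EFNA2 and EFNA3) and 1 below (EFNB2), against 13.2% and 12.3%. EFNB2 ranked 125 from the lowest of 22465 genes in SCR against WT.

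Among the Eph receptors, 13 of 14 were measured under a symbol of their own. In KD against SCR, EPHA2, a receptor that EFNA1 binds and activates, was higher, EPHA3, EPHA6 and EPHA7 were lower and 9 did not pass. The mean level of EPHA2 was 9.41 on the KD arrays, 7.29 on SCR and 7.15 on WT (KD minus SCR 2.12, SE 0.05, adjusted p = 3.12e-07). EPHA3, a receptor with high affinity for EFNA5, fell from 11.25 in SCR and 10.71 in WT to 4.08 in KD, a level close to the background medians of the arrays, so that its difference of -7.17 is limited by the background and may understate the change. EPHA7 differed between all 3 groups, with a mean of 4.29 on the KD arrays, 6.50 on SCR and 9.06 on WT, and was lower in SCR than in WT (-2.56, adjusted p = 9.89e-08). EPHA6 was dim in every group, at 3.86, 4.57 and 4.46, and its call against SCR (adjusted p = 0.0142) was narrow: it was lost without any 1 KD or SCR array or WT replicate 1, and it did not pass against WT (adjusted p = 0.0655). EPHB3 was lower in KD than in WT, with means of 6.69 and 7.86 (-1.18, adjusted p = 0.000198), and measured 7.27 in SCR. EPHB4, the receptor of EFNB2, passed in no comparison and is named only for that link. Its means were 8.08, 8.06 and 8.10 on the KD, SCR and WT arrays. The median of the 13 receptors was -0.30 in KD against SCR, against -0.06 over all genes. The 1 higher and 3 lower receptors stand beside 7.78% and 7.6% of all genes, and nothing is read about the receptor family from these counts.

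**Figure D3:**
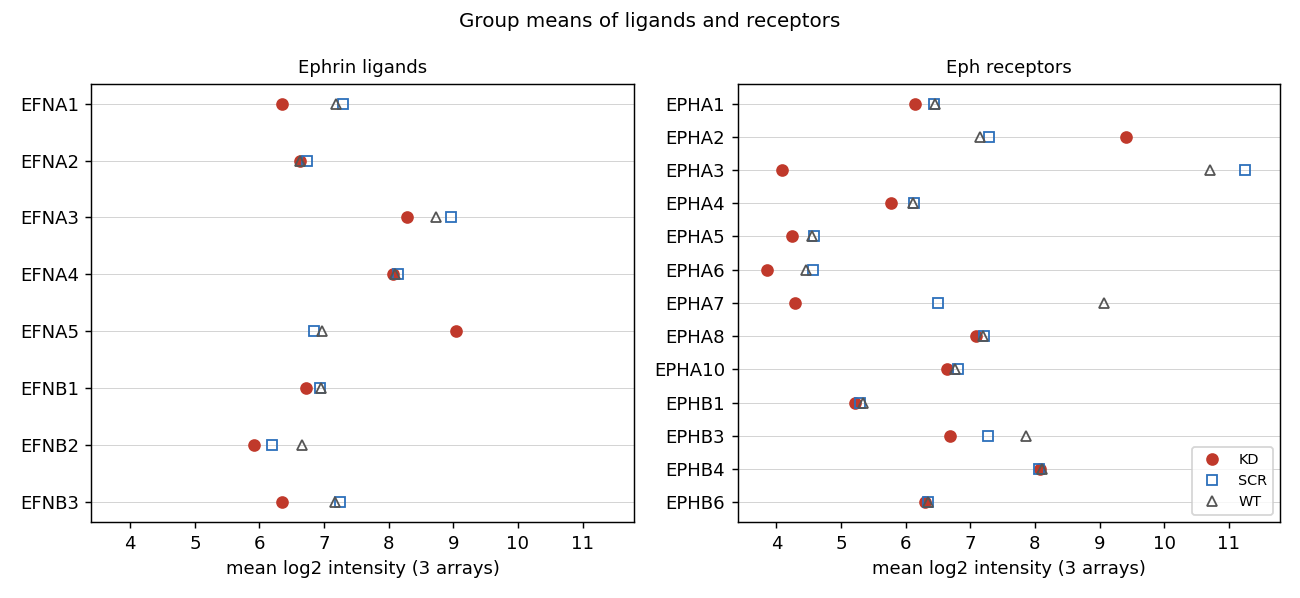
Group means of the 8 ephrin ligands (left) and of the 13 Eph receptors measured (right), in log2 intensity on the horizontal axis, each over 3 arrays. Levels are to be compared along a row only, since different genes have different probes; EFNA5 and EPHA2 have KD above both controls, and EPHA3 and EPHA7 show the widest gaps between KD and the controls.

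The genes through which ephrins and their receptors act were followed in 4 further lists. Of 23 measured effectors of forward signalling, 7 were higher in KD than in SCR, 3 were lower and 13 did not pass. Among all genes, 7.78% were higher and 7.6% lower. The list median was 0.26, against -0.06 over all genes. TIAM1, an exchange factor for Rac that binds Eph receptors and B ephrins, rose by 2.04 log2 units (SE 0.06, adjusted p = 2.24e-06) from a mean of 4.77 to 6.82. ABL2, a kinase that acts on the cytoskeleton, rose by 1.41 from 8.15 to 9.56. VAV3, an exchange factor needed for ephrin-induced retraction in mouse neurons together with VAV2, fell by 1.65 on the log2 scale from 6.23 to 4.58, and INPPL1 (SHIP2), a lipid phosphatase that binds EPHA2, fell by 1.03 from 8.89 to 7.87.

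Of 14 partners of reverse signalling, 2 were higher, 1 was lower and 11 did not pass, with a median of -0.08. The shares over all genes were 7.78% higher and 7.6% lower, and nothing is read about this list from its counts. STAT3, a transcription factor that can be recruited by B ephrins, rose by 1.78 (SE 0.05, adjusted p = 7.58e-07) and SDCBP (syntenin), a PDZ protein that binds the tail of B ephrins, rose by 0.57 (adjusted p = 0.0198). Leaving out any 1 of the 9 arrays ended the SDCBP call, and in KD against WT its difference was 0.29 (adjusted p = 1), with SCR 0.28 log2 units below WT. PICK1, a further PDZ protein that binds the tail, fell by 0.79 on the log2 scale (adjusted p = 0.00115). A list of cleavage and phosphatase genes held 12 measured genes, which are proteases and their partners, phosphatases and the ubiquitin ligase CBL. Of these, 5 were higher and none was lower in limma after Bonferroni adjustment, against 7.78% and 7.6% of all genes. By Benjamini-Hochberg 8 were higher and 2 lower, against 21.9% and 28.5% of all genes. The list median was 0.38, against -0.06 over all genes. PTPN1, a phosphatase that acts on EphA receptors, rose by 1.36 (adjusted p = 1.25e-05) and MMP14, a membrane protease that cleaves EPHA2, rose by 1.17 (adjusted p = 0.00013). The other members that passed, ADAM12, ADAM10 and NCSTN, were named after their values were seen, and rose by 1.01, 0.92 and 0.63. The ADAM12 call was lost without KD replicate 2 or SCR replicate 1, and that of NCSTN without any 1 array other than WT replicate 1 or 3. Of 7 genes that attach, process or cut the GPI anchor, GPLD1, a phospholipase that releases GPI-anchored proteins, was lower (-1.09, adjusted p = 0.00027). The other 6 did not pass, and the median was -0.14. With 7.6% of all genes lower, nothing is read about this list from 1 call.

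**Figure D4:**
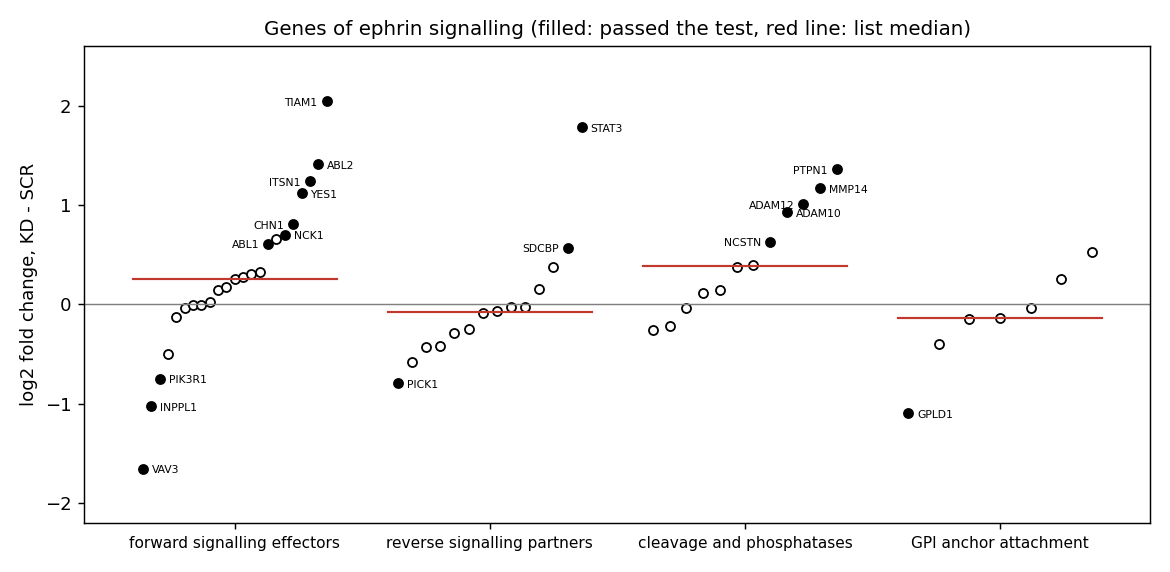
Log2 fold change of KD against SCR on the vertical axis for each measured gene of 4 lists of ephrin signalling, ordered within each list by its value. Filled points with a name passed the Bonferroni threshold and red lines are the list medians, which run from -0.14 for GPI anchor attachment to 0.38 for cleavage and phosphatases.

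The ephrins lie on 6 chromosomes, with EFNA4, EFNA3 and EFNA1 next to each other on chromosome 1 and the others alone on chromosomes 5, 13, 17, 19 and X. On chromosome 1 the KD minus SCR values of the measured genes in order were -0.24 for DCST2, -0.13 for DCST1, -0.52 for ADAM15, -0.08 for EFNA4, -0.68 for EFNA3, -0.95 for EFNA1, 0.40 for SLC50A1, -0.22 for DPM3 and -1.34 for the pseudogene HMGN2P18. EFNA4 did not pass while EFNA3 and EFNA1 did, and the difference between them was not tested. RefSeq lists a read-through gene that joins EFNA4 and EFNA3, so the signals of these transcript clusters could include its RNA. Around EFNA5, NUDT12 rose by 2.85 (adjusted p = 1.04e-07), from 3.19 in SCR, a level at background, to 6.05 in KD. The pseudogenes RAB9BP1 and RNA5SP189 between them were dim in all groups and did not pass, and on the other side of EFNA5 FBXL17 fell by 0.69 on the log2 scale (adjusted p = 0.01) while FER and PJA2 did not pass. Over all 36 neighbours, 1 was higher, 5 were lower and 30 did not pass, with a median of -0.19. Among all genes, 7.78% were higher and 7.6% lower, with a median of -0.06. Nothing is read about the neighbours from counts this small. Beside those named, the 5 that fell included EDA2R at -2.43 and NALF2 at -1.41 near EFNB1, and KDM6B at -1.06 near EFNB3. In KD against WT, where EFNB2 passed, its neighbour ARGLU1 was lower too (-0.65, adjusted p = 0.0432).

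**Figure D5:**
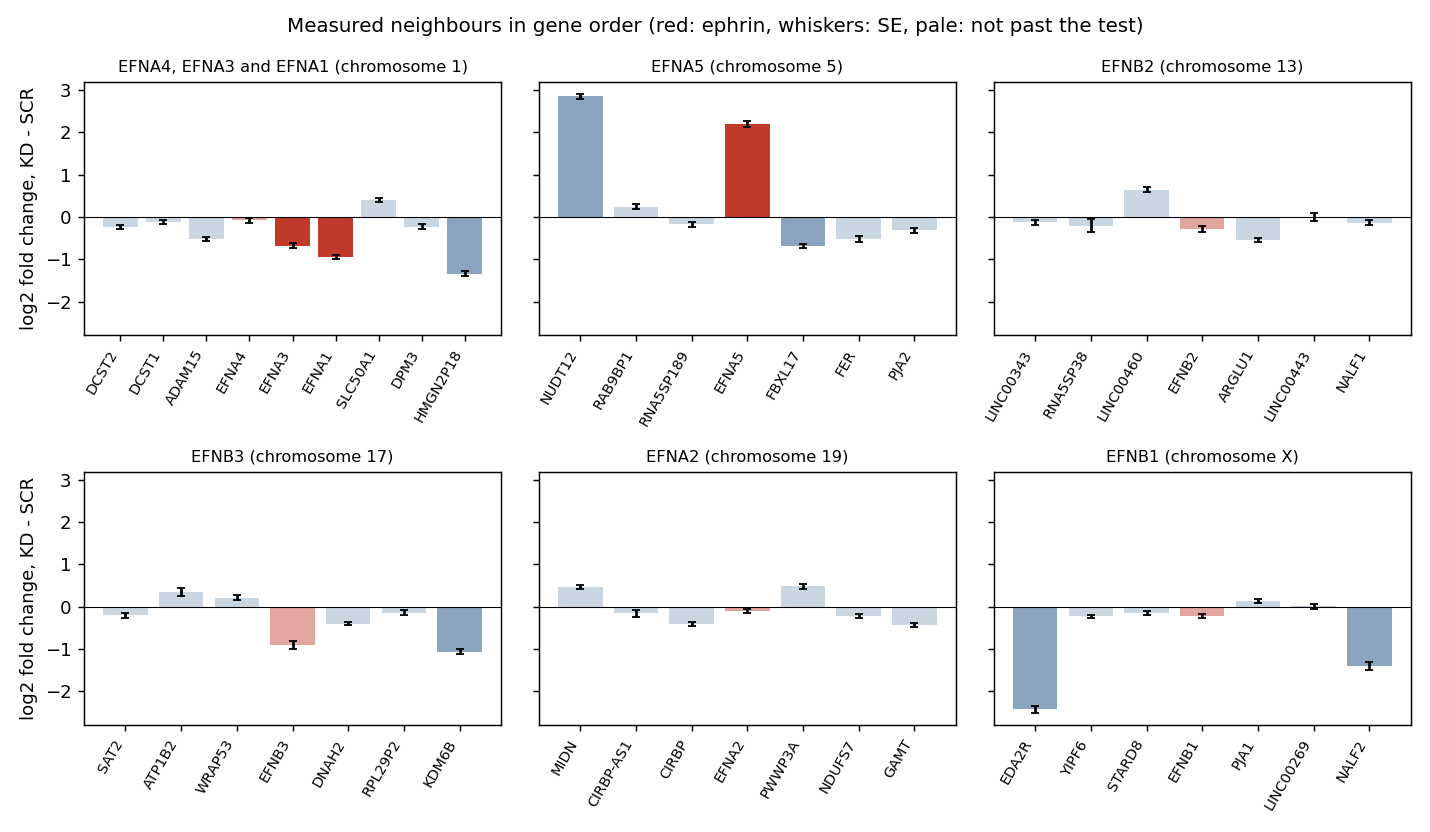
Log2 fold change of KD against SCR on the vertical axis for each ephrin (red) and up to 3 measured genes on either side (blue), in RefSeq gene order, with SE whiskers and pale bars for genes that did not pass. EFNA5 and NUDT12 have bars above 2, while the genes between them and on the other side of EFNA5 lie between -0.69 and 0.25.

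For each ephrin that passed, the genes with the most similar profile over the 9 arrays were found as the smallest root mean square difference between deviations from each gene's own mean. EFNA5 was closest to RBMS2, IQGAP2 and GRAMD2B, at 0.05, 0.06 and 0.06 log2 units. EFNA1 was closest to GLB1L, C7orf41 (MTURN in RefSeq) and TSPAN1, at 0.03 for each. EFNA3 was closest to DNMT3B, IGFBP1 and PDK3, at 0.04, 0.04 and 0.05. EFNB2 was closest to DAB1, TSPAN13 and PPARGC1A, at 0.05, 0.06 and 0.07. The distances describe likeness over 9 arrays of 3 groups and carry no test.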

How the data were processed

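Total RNA of 9 22Rv1 samples was hybridised to Affymetrix Human Transcriptome Array 2.0 arrays. The deposited values are log2 intensities that the authors made with RMA (background correction, quantile normalization and summary of probes). Their processing notes name Affymetrix Expression Console and Transcriptome Analysis Console 3.0, and no source used here gives the genome build of the array annotation. Of 70523 probe sets, 67528 transcript clusters were tested and 2995 control and other probe sets were left out. The annotation gave 23781 clusters 1 gene symbol, 1543 several and 42204 none, and the cluster with the highest 9-array mean stood for each of 22465 genes.

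Groups were compared with limma 3.58.1 in R 4.3.3 (1 mean per group over all 9 arrays, lmFit and eBayes, 6 residual and 3.34 prior degrees of freedom). A transcript was called at a Bonferroni-adjusted p under 0.05 over all 67528 clusters, after the adjustment named in the study's methods, which ran a one-way ANOVA. Intervals are 95% intervals of the moderated fit, and the number of arrays limits the precision. The pipeline was tested on simulated data. The members and gene lists were chosen with earlier results of these data known. Text names all 8 ephrins, Eph receptors that passed in any comparison, the pair of largest rises and of largest falls in each pathway list, the 3 most similar genes and SSX2. The 3 nearest measured neighbours on each side are counted and plotted, with values in the text for those that passed, for chromosome 1 and for genes beside EFNA5. EPHB4, ADAM12, ADAM10, NCSTN and the marker genes fall outside this rule. 1 Eph receptor is not analysed here. Promoters came from RefSeq (GRCh38.p14), and motifs were searched on both strands. Alternatives changed the adjustment, a 2-fold minimum, the test, the arrays in the fit, the scaling, a filter on dim transcripts (no group mean at or above 5.46), the variance model, a replicate block and each array in turn.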

Additional observations from a re-analysis of the deposited data

How the results depend on the processing

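In KD against SCR, 2 ephrins were lower in the reported fit and 5 by Benjamini-Hochberg. The count was 1 with only the compared groups in the fit, with arrays centred on their medians or with the replicate block. It was 1 without any one array (range 1 to 1), and 0 with a 2-fold minimum or by a one-way ANOVA. That ANOVA took only the 2 compared groups and each cluster's own variance, so it need not equal the study's own test. Its share of calls over all genes was not counted. In KD against WT the 2 lower ephrins became 5 by Benjamini-Hochberg, 1 after centring, quantile normalization, the replicate block or leaving out any array (range 1 to 1), and 0 with a 2-fold minimum, the ANOVA or only the compared groups. The 1 higher ephrin, EFNA5, became 0 by the ANOVA alone (adjusted p = 0.247 against SCR and 0.981 against WT), and its adjusted p in KD against SCR without each array in turn ran from 1.3e-05 to 0.000232. In SCR against WT, 1 ephrin was lower by Benjamini-Hochberg. In KD against SCR, the 3 lower of 13 Eph receptors became 8 by Benjamini-Hochberg, beside 28.5% of all genes. They became 4, with EPHB3 added, under the trended and robust variance model. The count was 2, without EPHA6, with the 2-fold minimum, the ANOVA, only the compared groups or the replicate block. It was 2 to 3 without each array. The dim filter removed EPHA6 and kept the calls of EPHA3 and EPHA7. Under it EPHB3, not called in the reported limma fit (Bonferroni-adjusted p = 0.113), gained a call. The SDCBP call was also lost with the 2-fold minimum, the ANOVA, only the compared groups and the replicate block. The other pathway genes were the 23 forward, 14 reverse, 12 cleavage and phosphatase and 7 GPI anchor genes measured. In the reported fit 14 were higher and 5 lower, beside 7.78% and 7.6% of all genes. By Benjamini-Hochberg these became 27 and 15, beside 21.9% and 28.5%. They became 8 and 3 with a 2-fold minimum and 1 and 0 by the ANOVA. There were 9 higher under the replicate block and 8 to 12 higher without each array. Shares of all genes under these last settings were not counted. EFNA3 lost its call against SCR in 14 of 18 alternatives and EFNB2 its call against WT in 15 of 18, and the cause was not tested. EFNA1 lost its call against SCR with the 2-fold minimum and the ANOVA, and against WT also with only the compared groups (adjusted p = 0.0563).

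Signs changed for values near 0 only: EFNA4 in KD against WT (0.0398 after centring, 0.0144 after quantile normalization), EFNA2 in KD against WT (-0.0404 to 0.059 without each array) and EFNB1 in SCR against WT (-0.0383 to 0.0243 without each array). Of 432 ephrin values under alternatives, 383 kept direction and side of the threshold, 36 lost a call, 7 gained one and 6 changed sign. Deviations of same-numbered arrays correlated at -0.02 to 0.16 over 9 pairs of arrays, against -0.21 to 0.09 for different numbers, so the numbers were not taken to pair arrays. Under the replicate block the adjusted p was 0.0734 for EFNA3 against SCR and 0.502 for EFNB2 against WT. Other clusters of a gene could not be tried, since each ephrin had 1. The replicates are technical and RNA integrity was low, and levels near 3.60 to 3.81, the background medians, limit differences of dim genes.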
